A study of Mus musculus with 6 samples.

Results

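Ciita and the genes of MHC class II antigen presentation were followed in mesenteric lymph nodes of mice with 2 TNF knockout genotypes. The set has 9 genes: Ciita, H2-Aa, H2-Ab1, H2-Eb1, Cd74, H2-DMa, H2-DMb1, H2-Oa and H2-Ob. They were found by matching the accession of each probe to a RefSeq symbol, and every probe of a member was kept. Of the 9 genes, 7 had a probe, against 12250 symbols on the whole array, and these 7 genes had 10 probes. H2-Aa and H2-Ab1 matched no probe and were not analysed here. Ciita was selected on the measured difference of its log2 ratio between the genotypes, which one of its probes showed and the other did not, and the class II genes were added to it. The values between genotypes are therefore a description. Intervals there give the error of a value, counts of calls stand beside the share over all probes, and nothing is read from either as a test.

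Per the labels, 3 arrays held nodes of the TB-TNF KO double strain (TB_TNF_KO) and 3 held nodes of the B-TNF KO strain (B_TNF_KO). The title of the series presents them as lacking TNF in both T and B cells and in B cells alone, so the loss in B cells was common to all 6 samples. The mice were naive adults, and each sample was the pooled nodes of 3 mice of 1 genotype. Node RNA carried Cy3, and a common pool of RNA from mouse cell lines carried Cy5 on every array. A log2 ratio here is node over cell line pool. No wild-type sample was analysed here, and the promoter that drives each deletion is not given in the sources used here. In whole nodes, fewer cells of a type and less RNA per cell cannot be told apart.

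MHC class II molecules are pairs of an alpha and a beta chain that show peptides from endocytosed proteins to helper T cells. In a lymph node they are made mainly by B cells, dendritic cells and macrophages. Ciita is the class II transactivator. It does not bind DNA itself but joins a complex of RFX, CREB and NF-Y factors that sits on the X and Y boxes of class II promoters, and it is known as the main switch of these genes.

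Both Ciita probes were annotated to one transcript and are 60 bases long. The end of probe 1 and the start of probe 2 are shown because the probes gave different values although their sequences meet. The capitals mark the 7 bases that both probes hold.
Ciita probe 1, last 30 bases: acacttaaaatgcatcagctacgTTCACTG
Ciita probe 2, first 30 bases: TTCACTGcaaagatctttgtagcttccaaa
Joined at these bases, the probes read as 1 run of 113 bases. An end overlap of at least 7 bases was found in 207 of the 2572 genes with 2 probes (8.05%). Ciita lies on chr16:10480014-10531064 of GRCm38.p6. The genome sequence was not used here, so whether the probes lie in coding sequence or in an untranslated region was not determined.

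The class II promoters are shown because the genes are read through common promoter boxes. The sequences are from RefSeq (GRCm38.p6), in windows of 250 bases before to 50 bases after each start. Capitals mark the Y box letters TGATTGG and, further upstream, the X box-like letters AGNAACNNATGATG. The X box-like letters are what the member promoters with ATGATG up to 30 bases before a Y box share, with N where they differ, so they were chosen on these sequences.
H2-Eb1, chr17:34305762-34305821, plus strand: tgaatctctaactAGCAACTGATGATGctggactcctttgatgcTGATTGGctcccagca
H2-Aa, chr17:34287858-34287917, minus strand: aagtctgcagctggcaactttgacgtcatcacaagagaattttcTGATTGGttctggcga
H2-DMb1, chr17:34153084-34153143, plus strand: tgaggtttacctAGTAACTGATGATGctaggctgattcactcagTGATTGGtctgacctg
H2-Ob, chr17:34238802-34238861, plus strand: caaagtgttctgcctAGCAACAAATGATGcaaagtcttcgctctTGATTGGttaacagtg
H2-Oa, chr17:34092290-34092349, plus strand: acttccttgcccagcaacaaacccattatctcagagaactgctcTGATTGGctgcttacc
The Y box letters were found in 5 of the 6 members with a window, on both strands searched, against 7.82% of all 32851 windows. Their first base lay between 45 bases (H2-Oa) and 63 bases (H2-DMb1) before the start. The X box-like letters were in 3 of the 6 members and in 0.0244% of all windows, 8 in number. Between the boxes lay 17 bases in H2-Eb1, 18 in H2-DMb1 and 15 in H2-Ob. A match is a description of letters and not a measured binding site.

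Some arrays stood apart from the rest. The TB_TNF_KO arrays 1 and 2 differed in the node channel by 0.95 times their spread in the reference channel. The other pairs of arrays differed by 1.06 to 1.59 times. The pair at 1.06 was B_TNF_KO array 2 and TB_TNF_KO array 1, so a low ratio alone does not mark 1 RNA. The node spread was 0.174 for TB_TNF_KO arrays 1 and 2 and 0.188 for B_TNF_KO arrays 1 and 2. The reference spreads of these pairs were 0.183 and 0.142. The TB_TNF_KO pair differed by less than technical noise and was counted as 1 sample (n = 2 for TB_TNF_KO, n = 3 for B_TNF_KO). These arrays also had the lowest Y-linked signal, although array 1 is labelled male and array 2 female: Ddx3y had log2 ratios of -2.06, -1.95 and 1.25 on the TB_TNF_KO arrays, against 0.05, 0.53 and 1.61 on the B_TNF_KO arrays. Exocrine pancreas genes, 8 of 12 measured, were high on arrays 1 and 2 of both groups and low on array 3 of both. Their median log2 ratio was 4.42, 4.44 and 0.06 on the TB_TNF_KO arrays and 3.85, 4.16 and 0.13 on the B_TNF_KO arrays. Image analysis was run on 2 days, each with 3 arrays of 1 group, so day and genotype cannot be told apart. All 10 member probes were well above background in both channels on every array and passed the filter, and 0 of their 60 spots were saturated.

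Ciita probe 1 was higher in TB_TNF_KO nodes and Ciita probe 2 was not. Probe 1 had log2 ratios of 1.77, 1.62 and 1.68 on the TB_TNF_KO arrays, against 0.94, 1.07 and 0.83 on the B_TNF_KO arrays. All TB_TNF_KO arrays lay above all B_TNF_KO arrays, which was so for 10.7% of the 40790 probes tested. The means were 1.69 ± 0.01 (SD, n = 2) in TB_TNF_KO nodes and 0.95 ± 0.12 (SD, n = 3) in B_TNF_KO nodes, a difference of 0.74 (SE 0.07) or 1.67-fold. Of all probes tested, 24 (0.0588%) were higher in TB_TNF_KO nodes by at least this much and 35 (0.0858%) were lower by at least this much. Because this value chose the gene, no test is read from it.

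The brightness behind probe 1 showed the same order of groups. Its spot minus background intensity in the node channel was 2394, 2361 and 2841 on the TB_TNF_KO arrays and 1664, 1652 and 1715 on the B_TNF_KO arrays. In the reference channel, which held the same RNA throughout, it was 1866, 2257 and 1903 on the TB_TNF_KO arrays and 1551, 1630 and 1483 on the B_TNF_KO arrays. The reference spots of this probe were thus also brighter on the TB_TNF_KO arrays, and the groups did not overlap there at the level of intensities. The whole reference channel went the same way. Its median intensity was 322.5, 362.1 and 315.5 on the TB_TNF_KO arrays and 280.3, 283.0 and 280.7 on the B_TNF_KO arrays. The node channel medians were 143.6, 145.4 and 166.5 against 173.9, 158.8 and 203.4, so the log2 ratios also depend on scaling within arrays. After scaling between arrays the reference channel differed by 0.23 (SE 0.04) on the log2 scale, and the node channel alone differed by 1.00. In the reference channel 0 probes (0.0%) were called by limma at an adjusted p under 0.05, 23.0% had an unadjusted p under 0.05, and in 30.9% the groups did not overlap.

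Ciita probe 2 had log2 ratios of 0.03, 0.02 and 0.14 on the TB_TNF_KO arrays, against 0.11, 0.18 and 0.14 on the B_TNF_KO arrays. The groups overlapped, and all 6 arrays lay close to the level of the cell line pool. Their means were 0.08 ± 0.08 (SD, n = 2) in TB_TNF_KO nodes and 0.14 ± 0.03 (SD, n = 3) in B_TNF_KO nodes, a difference of -0.07 (95% interval -0.19 to 0.06). This probe was dim, with net node intensities of 36.4, 32.5 and 48.2 on the TB_TNF_KO arrays and 46.0, 50.2 and 51.6 on the B_TNF_KO arrays. At that brightness the offset of 50 added in the background correction draws ratios towards 0, so the fold of this probe is understated if it differs.

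**Figure D1:**
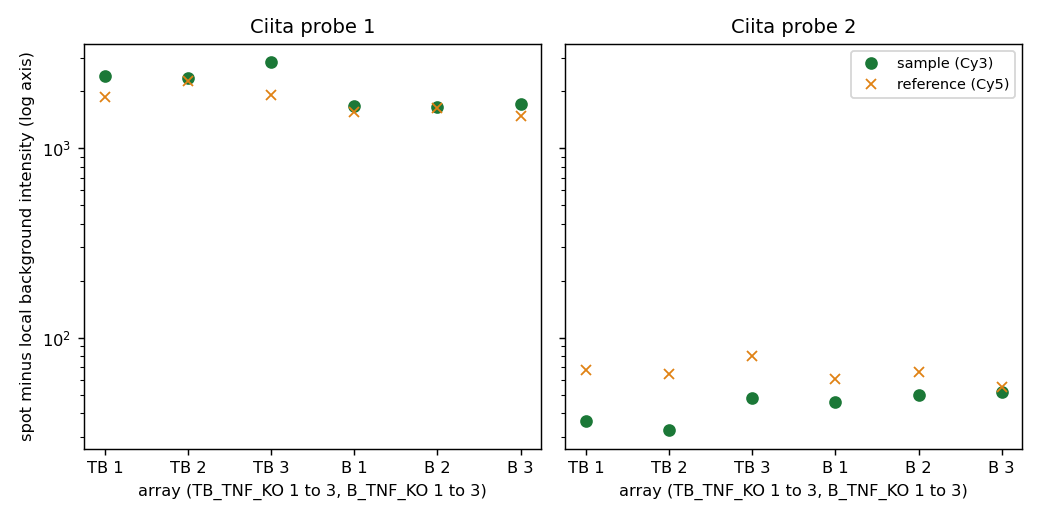
Spot minus local background intensity (log axis) of Ciita probe 1 and Ciita probe 2 on each array, with the node sample as circles and the cell line pool as crosses. Node intensity of probe 1 lies between 2361 and 2841 on the TB_TNF_KO arrays and between 1652 and 1715 on the B_TNF_KO arrays, while probe 2 stays between 32.5 and 51.6 on all 6.

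The gap between the Ciita probes is part of what chose the gene, so its values are a description. Within an array, probe 1 exceeded probe 2 by 1.74, 1.61 and 1.54 in log2 ratio on the TB_TNF_KO arrays and by 0.82, 0.89 and 0.69 on the B_TNF_KO arrays. The group differences of the probes were 0.81 apart. Over 2559 genes with 2 probes tested the median gap was 0.09, and 6 genes (0.234%) had a larger one than Ciita. Taking the mean of both probes as the value of Ciita lowered its difference to 0.34.

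The classical beta chain H2-Eb1 (chr17:34305867-34316674), which presents the peptide together with an alpha chain, had similar ratios in both genotypes. Its probe 1 had log2 ratios of 3.75, 3.70 and 3.72 on the TB_TNF_KO arrays, against 3.50, 3.81 and 3.71 on the B_TNF_KO arrays. The B_TNF_KO arrays lay on both sides of the TB_TNF_KO arrays. The difference was 0.05 (95% interval -0.18 to 0.28), and it was -0.10 when arrays were centred on their median in place of loess. Probe 2 had 4.50, 4.56 and 4.41 on the TB_TNF_KO arrays, against 4.40, 4.71 and 4.36 on the B_TNF_KO arrays. Here too the B_TNF_KO arrays enclosed the TB_TNF_KO arrays, with a difference of -0.02 (95% interval -0.29 to 0.25). The 2 probes of H2-Eb1 were 0.07 apart in their group difference, a gap that 56.7% of genes exceeded.

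Cd74, the invariant chain that escorts new class II molecules and blocks their groove until they reach the endosome, also overlapped between groups. Its probe had log2 ratios of 3.91, 3.95 and 3.99 on the TB_TNF_KO arrays, against 3.76, 4.11 and 3.82 on the B_TNF_KO arrays. The highest and the lowest value both came from B_TNF_KO arrays. The difference was 0.06 (95% interval -0.20 to 0.32). The sign turned to -0.13 in the node channel alone, and the reference channel of this probe differed by -0.36 between groups.

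H2-DMa (chr17:34119693-34139101) and H2-DMb1 (chr17:34153191-34160229) encode the DM pair, which removes the invariant chain remnant and edits the peptides. H2-DMa had log2 ratios of 3.07, 2.97 and 2.95 on the TB_TNF_KO arrays, against 3.06, 3.10 and 3.10 on the B_TNF_KO arrays. The groups met at TB_TNF_KO array 1 and B_TNF_KO array 1, and the other TB_TNF_KO arrays lay below. The difference was -0.10 (95% interval -0.21 to 0.01). H2-DMb1 probe 1 had 4.44, 4.43 and 4.37 on the TB_TNF_KO arrays, against 4.27, 4.49 and 4.33 on the B_TNF_KO arrays. The groups overlapped and the difference was 0.04 (95% interval -0.14 to 0.22).

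H2-DMb1 probe 2 was the most scattered of the class II probes. It had log2 ratios of 1.32, 1.28 and 1.71 on the TB_TNF_KO arrays, against 2.31, 1.55 and 1.51 on the B_TNF_KO arrays. B_TNF_KO array 1 stood high and the rest overlapped. The difference was -0.29 (95% interval -0.93 to 0.36), it was -0.49 without TB_TNF_KO replicate 3, and it turned to 0.20 when only array 3 of each group was compared. H2-DMb2, a near copy of this gene, was not measured under its own name, and whether it contributes to these probes is uncertain. The probes of H2-DMb1 were 0.33 apart in group difference, which 6.06% of genes exceeded.

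H2-Oa (chr17:34092379-34095234) and H2-Ob (chr17:34238905-34245908) encode the DO pair, an inhibitor of DM that is known mainly from B cells. H2-Oa had log2 ratios of 2.51, 2.42 and 2.52 on the TB_TNF_KO arrays, against 2.62, 2.42 and 2.49 on the B_TNF_KO arrays. The groups overlapped, with a difference of -0.02 (95% interval -0.19 to 0.15). H2-Ob had 2.32, 2.28 and 2.81 on the TB_TNF_KO arrays, against 2.44, 2.88 and 2.77 on the B_TNF_KO arrays. Its TB_TNF_KO arrays 1 and 2 were the lowest of the 6, and array 3 lay among the B_TNF_KO arrays. The difference was -0.15 (95% interval -0.59 to 0.30). It was -0.40 without TB_TNF_KO replicate 3 and 0.11 without TB_TNF_KO arrays 1 and 2.

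**Figure D2:**
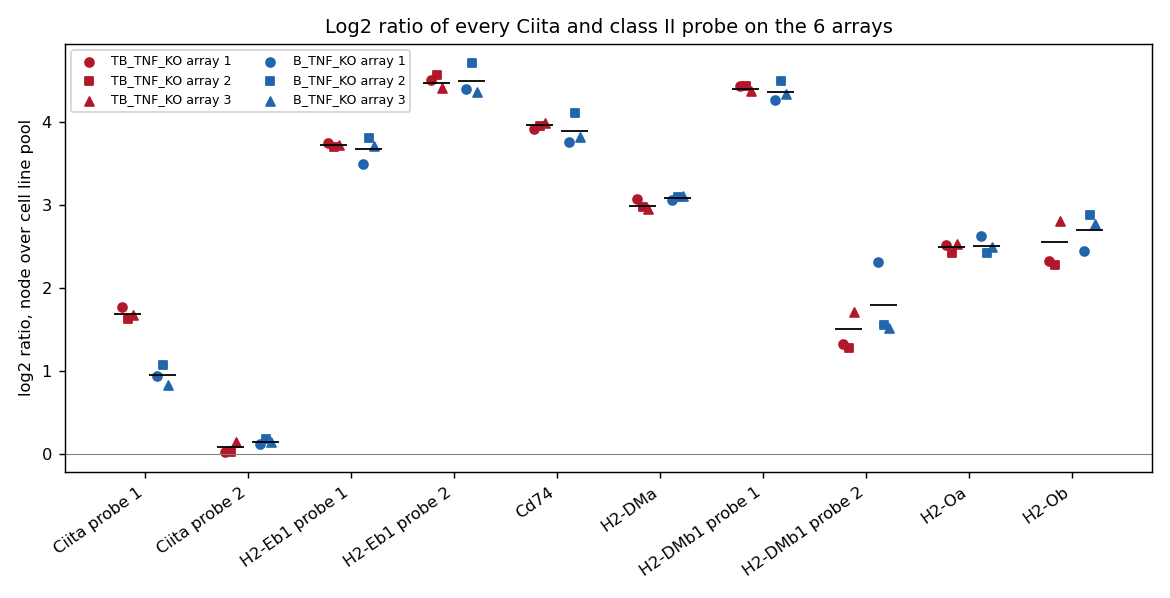
Log2 ratio of node over cell line pool for each of the 10 probes on the 6 arrays, with TB_TNF_KO in red at the left and B_TNF_KO in blue at the right of each pair, and group means as bars (TB_TNF_KO arrays 1 and 2 averaged first). Ciita probe 1 is the probe whose groups do not overlap.

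Side by side with the 0.74 of Ciita probe 1, the class II probes had differences near 0 or below it. Of the 8 class II probes of 6 genes, 3 were higher and 5 lower in TB_TNF_KO nodes, with differences of -0.29 to 0.06. Their median was -0.02, against -0.01 over all probes. The groups were apart in 0 of 8, against 27.7% of all probes in either direction. With limma (Benjamini-Hochberg adjusted p under 0.05), 0 of 8 were called against 0.0147% of all probes, and 0 of 8 had an unadjusted p under 0.05 against 16.2% of all probes. Limma with the 6 arrays as 6 samples called 0 of 8 against 6.04% of all probes. With the replicate number as a block on these 6 samples it called 0 of 8 against 8.01%.

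The upper 95% bounds of the 8 class II probes were 0.01 to 0.36, and their lower bounds were -0.93 to -0.14. The node channel alone gave differences of -0.31 to 0.11 and the reference channel -0.36 to 0.03. Per array, the median log2 ratio of the 8 class II probes was 3.41, 3.34 and 3.34 in TB_TNF_KO nodes and 3.28, 3.45 and 3.40 in B_TNF_KO nodes. The means of these medians were 3.35 ± 0.03 (SD, n = 2) in TB_TNF_KO nodes and 3.38 ± 0.09 (SD, n = 3) in B_TNF_KO nodes, and the arrays overlapped.

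**Figure D3:**
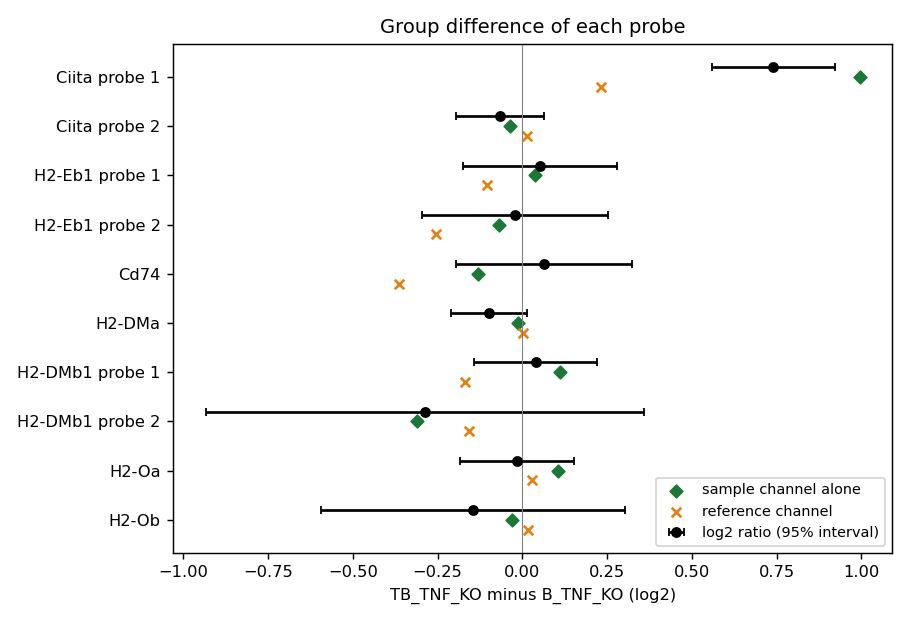
Difference of TB_TNF_KO minus B_TNF_KO (log2) for each probe, as the log2 ratio with its 95% interval (black), the node channel alone (green) and the reference channel (orange). The log2 ratio of Ciita probe 1, the value that chose the gene, differs by 0.74, and those of the class II probes by -0.29 to 0.06.

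A contrast that did not choose the members was the level in nodes against the cell line pool. All 8 class II probes were higher in nodes (limma, adjusted p under 0.05), against 33.2% of all probes called higher and 34.7% called lower. Their log2 ratios were 1.65 to 4.48 with a median of 3.37, against a median of -0.01 over all probes. H2-Eb1 probe 2 stood at 4.48 (95% interval 4.34 to 4.62), which is 22.3-fold. H2-DMb1 probe 1 was at 4.38 (4.29 to 4.47), Cd74 at 3.93 (3.80 to 4.06) and H2-Eb1 probe 1 at 3.70 (3.58 to 3.81). The peptide editor H2-DMa was at 3.04 (2.98 to 3.09).

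The DO chains came next, with H2-Ob at 2.62 (2.40 to 2.85) and H2-Oa at 2.50 (2.42 to 2.59), whose intervals overlapped. H2-DMb1 probe 2 was lowest at 1.65 (1.33 to 1.97). The largest adjusted p of the 8 in limma was 6.23e-05. Ciita probe 1 was at 1.32 (1.23 to 1.41), with an adjusted p of 4.92e-07 in limma. Ciita probe 2 was at 0.11 (0.05 to 0.18), with an adjusted p of 0.010 in limma, and it no longer passed without TB_TNF_KO replicate 3 (0.08). Node RNA always carried Cy3, so dye and RNA source cannot be told apart, and the pool itself held B cell and macrophage lines.

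No class II probe was among the probes most like Ciita probe 1. Likeness was the root mean square distance of log2 ratios over the 6 arrays, each probe centred on its mean, among 14791 probes with a symbol. The nearest genes were Senp1 and Luc7l (0.07 each), Rbm10 (0.08), Ccdc77 and Pakap (0.09 each), against 0.38 for the variation of Ciita probe 1 itself. They were picked for following the groups as Ciita probe 1 did, and their differences of 0.59 to 0.76 are a description. The nearest class II probe, H2-DMb1 probe 1, ranked 2550 at a distance of 0.35. For Ciita probe 2 the nearest genes were Ndc80, Olfr1261, Mkrn2, Gabrq and Pabpn1, at distances of 0.008 to 0.016 against a variation of 0.060. The class II probe nearest to Ciita probe 2, H2-DMa, ranked 3677 at a distance of 0.068.

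Around the members, limma called 0 probes of the other presentation lists between genotypes at an adjusted p under 0.05. At an unadjusted p under 0.05 there was 1 probe higher and 2 lower in the promoter complex, 1 and 4 among the regulators of Ciita, 1 and 4 in processing and turnover, 0 and 0 in class I and 1 and 2 in costimulation, against 16.2% of all probes in either direction. Of the factors of the promoter complex, 4 of 7 genes had a probe, and among their 5 probes 1 lay above and 2 below in all TB_TNF_KO arrays (background 10.7% and 17.1%). Creb1, which binds beside the X box, had probes that went apart like those of Ciita, at 0.39 and -0.15. Nfyc, a subunit of the Y box factor NF-Y, differed by -0.29. The RFX subunits Rfxap and Rfxank, which bind the X box, differed by 0.08 and -0.001.

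Of the regulators of Ciita, 13 of 13 genes had a probe, and of 19 probes 1 lay above (background 10.7%) and 6 below (background 17.1%), with a median difference of -0.02. Among the brightest were Irf8, a factor of B cells and dendritic cells (0.26), Spi1, a myeloid and B cell factor (0.05), and Bcl6, the germinal centre repressor (-0.23). Of the genes of peptide processing and turnover, 8 of 11 had a probe, and of 11 probes 1 lay above and 3 below against the same background, with a median of -0.14. Ctss, the protease that cleaves the invariant chain, differed by -0.14, and the cathepsin inhibitor Cst3 by 0.19. The proteases Ctsl and Ctsd differed by -0.09 and -0.23.

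Of the class I genes, 7 of 12 had a probe, and of 10 probes 1 lay above and 2 below, with a median of -0.02. B2m, the light chain of class I, differed by 0.06, a value that rests on 1 B_TNF_KO array because its spots on arrays 2 and 3 were outliers and left out. The immunoproteasome subunits Psmb8, Psmb9 and Psmb10 differed by 0.14, 0.08 and -0.06 at their brightest probes. A second, dimmer Psmb8 probe differed by -0.09. Of the costimulation genes, 4 of 4 had a probe, and of 6 probes 1 lay above and 2 below, with a median of -0.13. The brightest probes of Icosl, Cd86, Cd40 and Cd80 differed by -0.09, -0.16, -0.20 and 0.17. These genes give the second signal beside the peptide. The background for the class I and costimulation counts was again 10.7% above and 17.1% below.

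Markers of the cells that carry class II molecules were measured beside the members, and limma called 0 of them between genotypes. At an unadjusted p under 0.05, 0 B cell probes were higher and 4 lower, with 0 and 5 for dendritic cells, 0 and 3 for macrophages and 1 and 3 for T cells, against 16.2% of all probes in either direction. The B cell list had 9 of 10 genes and 13 probes, of which 0 lay above (background 10.7%) and 5 below (background 17.1%) in all TB_TNF_KO arrays. Its median log2 ratio took the brightest probe of each gene. It was 3.03, 2.67 and 3.09 on the TB_TNF_KO arrays and 3.40, 3.33 and 3.31 on the B_TNF_KO arrays, which did not overlap. On every array this median was the value of a single gene, Fcrl1, so it need not hold for the list. The node intensity of the B cell list, background corrected, quantile normalised between arrays and summed over these brightest probes, did overlap. It was 32897 to 41318 in TB_TNF_KO nodes and 36942 to 38100 in B_TNF_KO nodes. The brightest B cell markers, Cd79b (0.05), Ms4a1 (0.03) and Cd22 (0.12), were slightly positive, and Tnfrsf13c differed by -0.53.

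The dendritic cell list had 9 of 10 genes and 10 probes, of which 0 lay above (background 10.7%) and 6 below (background 17.1%). Its median log2 ratio was 1.43, 1.26 and 1.49 on the TB_TNF_KO arrays and 1.60, 1.59 and 1.72 on the B_TNF_KO arrays, again without overlap. With the brightest probe of each gene, this median was the value of Flt3 on the TB_TNF_KO arrays and of Ccl22 on the B_TNF_KO arrays. It thus compares different genes. Flt3 itself had 1.53, 1.58 and 1.58 on the B_TNF_KO arrays. The node intensity of the dendritic cell list, summed in the same way as for B cells, was 18972 to 19641 in TB_TNF_KO nodes and 18872 to 21045 in B_TNF_KO nodes. The brightest were Fscn1 (-0.41), Ccr7 (-0.22), Clec10a (-0.61) and Flt3 (-0.15), and a second, dimmer Fscn1 probe differed by -0.18. In the same order, these brightest probes differed by -0.17, 0.11, -0.28 and 0.20 in the node channel alone. In the reference channel they differed by 0.23, 0.13, 0.14 and 0.21. Over the whole list 2 probes were higher and 8 lower. The macrophage list had 7 of 9 genes and 8 probes, of which 0 lay above and 3 below against the same background, and its medians overlapped, at 2.84, 2.84 and 2.73 on the TB_TNF_KO arrays and 2.87, 3.01 and 2.83 on the B_TNF_KO arrays. Its sum was 35054 to 39090 in TB_TNF_KO nodes and 38285 to 44746 in B_TNF_KO nodes. The complement genes C1qa, C1qc and C1qb differed by -0.13, 0.08 and -0.10, and Adgre1 by -0.41. The T cell list had 6 of 8 genes and 8 probes, of which 1 lay above and 3 below against the same background. Its medians did not overlap, at 2.83, 2.75 and 2.86 on the TB_TNF_KO arrays and 2.93, 3.08 and 3.06 on the B_TNF_KO arrays. Each of these medians lay midway between the brightest probes of Lck and Cd5. Those probes differed by -0.03 and 0.06 in the node channel alone and by 0.09 and 0.05 in the reference channel. Its sum was 26395 to 27662 in TB_TNF_KO nodes and 27097 to 28383 in B_TNF_KO nodes. The brightest probes differed by -0.22 for Lck, -0.05 for Cd3d, -0.17 for Cd5 and 0.03 for Cd3e. A second, dimmer Cd5 probe went the other way, at 0.31 in the log2 ratio and 0.32 in the node channel alone. It was the T cell probe whose TB_TNF_KO arrays all lay above. No list had a gene below background on every array, and the part of these markers in the member values was not tested.

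**Figure D4:**
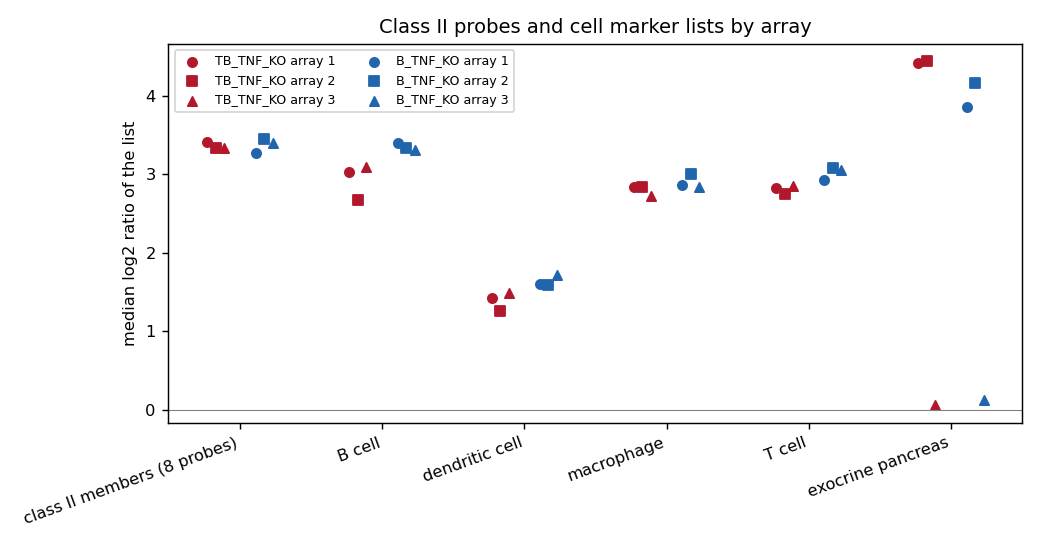
Median log2 ratio of node over cell line pool on each array for the 8 class II probes and for the marker lists, with TB_TNF_KO in red at the left and B_TNF_KO in blue at the right. The class II medians of the groups overlap (3.34 to 3.41 and 3.28 to 3.45), the B cell, dendritic cell and T cell medians do not, and the pancreas medians are low on array 3 of both groups. Marker medians take the brightest probe of each gene and rest on the middle genes of a list, which is Fcrl1 alone for B cells.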

How the data were processed

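Two-colour Agilent oligonucleotide arrays held node RNA (Cy3) and a common cell line pool (Cy5), with no dye swap. The scans were quantified by the authors in Agilent Feature Extraction A.7.5.1, per the file headers. Spot intensity and local background intensity of each channel come from the deposited scanner files. Their deposited log10 ratio is reference over sample and was turned round. The deposited series table holds log10 values (column medians 2.98 to 2.99; r with the processed Cy3 signal 0.993 to 0.996 across probes, which are not independent). Its background step and scaling between arrays are unknown.

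Background was corrected by normexp (offset 50) on mean intensities, followed by loess within each array with control spots at weight 0 (limma 3.58.1, R 4.3.3). Control spots and 228 outlier spots were then left out. Probes needed node signal well above background on 3 or more arrays. Of 41006 probes 40791 passed, and 40790 could be tested. Of 41034 spots, 15297 had a symbol through RefSeq (GRCm38.p6) and 25737 kept the file's name. Probes were fitted one by one on the log2 ratio made from the deposited intensities (lmFit, eBayes, Benjamini-Hochberg over all probes). For single channels, log2 intensity was quantile normalised between arrays. Median net intensity per array was 143.6 to 203.4 in the node channel and 280.3 to 362.1 in the reference channel, and 95.91% to 99.61% of node spots were well above background. The number of arrays limits the precision.

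Groups came from the sample titles. Only the labels say that pools came from separate animals, and p-values measure the spread between these samples, which may be technical. TB_TNF_KO arrays 1 and 2 entered as 1 sample, except in the fit with 6 samples and the fit with the block. Same-numbered samples of the 2 groups deviated together (r of deviations 0.13, 0.53 and 0.62 for numbers 1, 2 and 3), so the numbers were taken to pair the samples and the fit with the number as a block is given. The pairs are not independent, since TB_TNF_KO arrays 1 and 2 may be 1 RNA and array 1 deviated more closely with B_TNF_KO array 2 (0.43).

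The members and lists were chosen with earlier results of these data known. Every member probe is named. Genes most like Ciita are the 5 nearest per probe (no clone names, Xist, Y-linked or saturated probes). From each list, up to 4 genes with the brightest node signal are named, and 1 of these genes is not reported here. Most list probes passed the node over pool test, so passing it was not used to name genes. The second probes of Creb1, Cd5, Psmb8, Fscn1 and Adgre1 and the genes Fcrl1, Ccl22 and Ddx3y were singled out after their values were seen. Otherwise the value given for a list gene is that of its brightest probe. Fits were tested on simulated data. Alternatives covered samples counted, background, normalisation, channel, GC content, deposited values, filters, probe handling, the spread model, arrays in doubt and each replicate left out. Plots were made in Python 3.11.15 with matplotlib 3.10.9.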

Additional observations from a re-analysis of the deposited data

How the results depend on the processing

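Between genotypes, limma called 0 probes higher and 6 lower of 40790. Counting the 6 arrays as 6 samples gave 597 higher and 1868 lower, and the replicate number as a block on these 6 samples 738 and 2531. A trended robust spread model, with TB_TNF_KO arrays 1 and 2 as 1 sample, gave 148 and 409. Lower calls fell to 0 without background subtraction, 2 in the node channel alone, 1 with the deposited log ratio, 0 with the deposited series table, 2 with probes averaged per gene and 0 without the TB_TNF_KO arrays lacking Y-linked signal. Leaving out each replicate in turn gave 0 to 5 lower calls. The cause of these shifts was not tested. The difference of Ciita probe 1, which chose the gene, was 0.34 (mean of both probes) to 1.00 (node channel alone) over 21 settings. The class II probes gave 164 values over these settings, from -0.49 to 0.20. Comparing only array 3 of each group, the setting with low pancreas signal, was chosen after seeing the data and gave 0.84 for Ciita probe 1. Of the member values between genotypes under alternatives, 186 moved by less than the spread between samples and 18 by more, and in the reference channel 28 and 2. The replicate block changed no call of a class II probe. In nodes over pool, 149 of the values under alternatives kept their direction and call. The exception was Ciita probe 2 at 0.08 without TB_TNF_KO replicate 3. The reference channel gave 0 calls in every setting run, with 23.0% of probes at an unadjusted p under 0.05. With 2 and 3 samples, class II differences within the intervals given, up to 0.36 higher or 0.93 lower, could not be told from 0.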
